A study of Arabidopsis thaliana with 4 samples.

Results

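*PDF1.2A* (AT5G44420), *PDF1.2C* (AT5G44430) and *PDF1.3* (AT2G26010) encode plant defensins and were followed in the inflorescence stem of *Arabidopsis thaliana*. They are 3 of the 156 genes deposited as up-regulated in the *msil2/4* double mutant, out of 234 listed genes in all, the other 78 being deposited as down-regulated. The genes were therefore chosen by their measured difference between the genotypes, and that difference is given here as a description, without a test. Poly(A) RNA was sequenced from the basal section of the stem of mature Col-0 wild-type plants and of *msil2/4* plants, which carry the T-DNA insertion alleles *msil2-1* and *msil4-1* of 2 genes for Musashi-like RNA-binding proteins and are labelled as a knockdown. Both genotypes were kept under long days and left untreated, and each was represented by 2 libraries of single 75-nt reads. The labels number the libraries but do not name the plants or harvests behind them, so that the spread between the replicates may be biological or technical. *MSIL2* and *MSIL4* were in neither table, as were all 16 marker genes of fibers and xylem, phloem, epidermis, leaf mesophyll and senescing tissue that were looked for, so the files give no check of the genotype or of the tissue. The deposited unit was RPKM, reads per kilobase of transcript, scaled to the mapped reads of the library. The number of mapped reads per library is not given, and in a bulk sample a change in the number of expressing cells and a change in mRNA per cell cannot be told apart.

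Plant defensins are small secreted peptides, rich in cysteines that form disulfide bridges, and many of them inhibit the growth of fungi. In Arabidopsis leaves, *PDF1.2* is the classical marker of the combined jasmonate and ethylene response. Both hormones act there through the ethylene response factors ORA59 and ERF1, which bind the GCC box of its promoter, and salicylic acid counteracts the response.

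The annotation (RefSeq, TAIR10.1) places the copies in pairs. *PDF1.2A* lies on chromosome 5 at 17906968 to 17907638 and *PDF1.2C* at 17908850 to 17909507, both on the minus strand and 1211 bases apart. *PDF1.3* lies on chromosome 2 at 11087280 to 11088001 on the plus strand, 1121 bases from *PDF1.2B* (AT2G26020, 11089123 to 11089805), the remaining copy of the *PDF1.2* group. Each of these 4 genes has 2 exons and a coding sequence of 243 nt for 80 residues. The coding sequences are shown because the reads of near-identical copies have to be told apart at the positions where they differ. Capitals mark the 27 positions that are not the same in all 4 copies.
PDF1.2A: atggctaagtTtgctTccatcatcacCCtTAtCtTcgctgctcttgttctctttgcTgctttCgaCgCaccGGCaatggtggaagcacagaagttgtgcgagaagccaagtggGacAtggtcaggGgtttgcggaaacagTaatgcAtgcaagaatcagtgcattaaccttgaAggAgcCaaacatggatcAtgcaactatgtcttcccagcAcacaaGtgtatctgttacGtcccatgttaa
PDF1.2C: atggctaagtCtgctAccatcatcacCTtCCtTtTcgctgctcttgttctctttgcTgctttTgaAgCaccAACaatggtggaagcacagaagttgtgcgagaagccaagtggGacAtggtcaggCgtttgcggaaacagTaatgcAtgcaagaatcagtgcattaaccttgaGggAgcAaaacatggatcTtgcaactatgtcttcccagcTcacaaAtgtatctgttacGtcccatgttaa
PDF1.2B: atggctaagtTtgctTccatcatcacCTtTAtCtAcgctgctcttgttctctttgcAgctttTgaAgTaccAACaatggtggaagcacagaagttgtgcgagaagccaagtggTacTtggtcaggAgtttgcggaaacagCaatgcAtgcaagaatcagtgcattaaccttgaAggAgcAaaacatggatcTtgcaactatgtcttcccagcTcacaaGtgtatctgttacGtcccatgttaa
PDF1.3: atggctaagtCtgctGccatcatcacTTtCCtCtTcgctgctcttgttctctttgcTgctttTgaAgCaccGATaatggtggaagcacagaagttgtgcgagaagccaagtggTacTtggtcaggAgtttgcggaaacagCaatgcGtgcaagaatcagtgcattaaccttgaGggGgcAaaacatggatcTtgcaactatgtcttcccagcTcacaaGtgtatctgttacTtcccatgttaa

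The coding sequences of *PDF1.2A* and *PDF1.2C* differed at 16 positions (93.4% identity), those of *PDF1.2A* and *PDF1.3* at 21 (91.4%) and those of *PDF1.2C* and *PDF1.3* at 13 (94.7%). *PDF1.2C* was thus nearer in coding sequence to *PDF1.3*, on the other chromosome, than to its neighbor *PDF1.2A*. Over the whole transcripts the order was the other way, with 76% identity between *PDF1.2A* and *PDF1.2C* and 69.5% between *PDF1.2C* and *PDF1.3*. At the protein level, *PDF1.2C* and *PDF1.3* differed in 3 of 80 residues, *PDF1.2A* and *PDF1.2C* in 6, and *PDF1.2A* and *PDF1.3* in 7. Of the 27 variable positions, 10 were in the 64 coding nt of exon 1 and 17 in the 179 coding nt of exon 2. The longest stretch shared by all 4 copies was 39 nt, from position 75 to position 113 counted from the A of the start codon, which is shorter than a read. Single pairs of copies, such as *PDF1.3* and *PDF1.2B*, share longer stretches, and the windows below compare each of the followed copies with every other.

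To see how far 75-nt reads can separate the copies, each 75-nt window of each annotated transcript was searched in the genome and in all other transcripts. None of the 505 windows of *PDF1.2A*, the 474 of *PDF1.2C* or the 546 of *PDF1.3* occurred anywhere else without a mismatch. With up to 2 mismatches allowed, 33 windows of *PDF1.2A* (6.53%), 86 of *PDF1.2C* (18.1%) and 53 of *PDF1.3* (9.71%) matched another transcript of the *PDF* family. These near matches lay within the coding part, except for 4 of the 86 windows of *PDF1.2C*. Over all windows of a transcript, the median of the fewest mismatches to another copy was 10 for *PDF1.2A*, 13 for *PDF1.2C* and 19 for *PDF1.3*. An error-free 75-nt read of the spliced transcript of any of the 3 genes therefore had only 1 perfect origin, while *PDF1.2C* had the largest share of reads within 2 mismatches of another copy. The authors mapped with the default parameters of TopHat2 and quantified with Cufflinks, and how reads with several possible origins were then divided among copies is not spelled out, so the values of the single copies are stated with their sum.

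**Figure D1:**
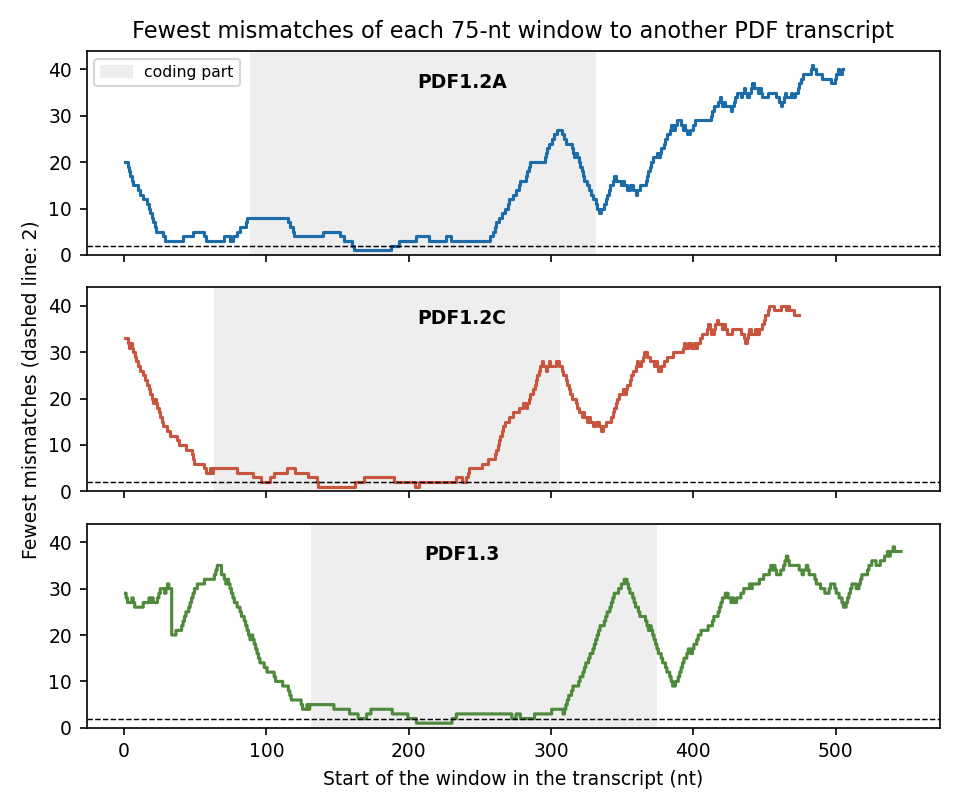
Fewest mismatches of each 75-nt window of the *PDF1.2A*, *PDF1.2C* and *PDF1.3* transcripts to any window of another *PDF* transcript (vertical axis, number of mismatches) against the start of the window in the transcript (horizontal axis, nt), with the coding part shaded and 2 mismatches as a dashed line. No line reaches 0, and the lines fall to 2 or fewer only over windows that start in the coding part.

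The region before the genes was read for the GCC box, since this element is known to carry the jasmonate and ethylene response of *PDF1.2*. GCCGCC was searched on both strands in the 500 bases before the start codon, where 5% of 27443 genes have it. *PDF1.2A* had a match at -310 to -305 and *PDF1.2B* at -301 to -296, whereas the letters were not found in this window of *PDF1.2C* or *PDF1.3*. The same place in the 4 copies is shown, all sequences lying upstream of the annotated transcripts, with the 6 bases before the shared catg in capitals.
PDF1.2A: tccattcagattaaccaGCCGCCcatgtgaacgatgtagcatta
PDF1.2C: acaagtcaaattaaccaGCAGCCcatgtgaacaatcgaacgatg
PDF1.2B: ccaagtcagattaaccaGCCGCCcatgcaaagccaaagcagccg
PDF1.3: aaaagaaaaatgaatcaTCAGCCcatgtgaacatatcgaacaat

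These stretches lie on chromosome 5 at 17907834 to 17907877 for *PDF1.2A* and 17909785 to 17909828 for *PDF1.2C*, and on chromosome 2 at 11088963 to 11089006 for *PDF1.2B* and 11087078 to 11087121 for *PDF1.3*. Of the other motifs searched on both strands, TTGAC, the core of the W-box of WRKY factors, occurred 3 times in *PDF1.2C* and 2 times in *PDF1.3* and was not found in *PDF1.2A* or *PDF1.2B*, with 65.7% of all genes having it. TGACG, the core site of TGA factors, occurred once in *PDF1.2A*, at -445 to -441, and in 33.3% of all genes. It can share 4 letters with the W-box core where both overlap. The G-box CACGTG was found in none of the 4 copies and in 9.17% of all genes. The windows can include annotated untranslated exon sequence, and a match of letters does not show that a factor binds.

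*PDF1.2A*, the copy usually meant by *PDF1.2*, was at 11.7 RPKM in Col-0 replicate 1 and 73.2 RPKM in Col-0 replicate 2, and at 363 RPKM in *msil2/4* replicate 1 and 2251 RPKM in *msil2/4* replicate 2. Both *msil2/4* libraries were above both Col-0 libraries, and the lower of them was 4.96-fold above the higher Col-0 library. The mean of *PDF1.2A* was 42.5 ± 43.5 RPKM in Col-0 and 1307 ± 1335 RPKM in *msil2/4* (SD, n = 2 for each), a 30.8-fold ratio of means. The SD was thus about as large as the mean in each genotype.

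*PDF1.2C*, the neighbor of *PDF1.2A*, was at 1.12 and 8.11 RPKM in Col-0 replicates 1 and 2 and at 92.5 and 860 RPKM in *msil2/4* replicates 1 and 2. It was the lowest of the 3 genes in each library, and its lower *msil2/4* value was 11.4-fold above its higher Col-0 value. The means were 4.62 ± 4.94 RPKM in Col-0 and 476 ± 543 RPKM in *msil2/4* (SD, n = 2 for each), a 103-fold ratio. The value of 1.12 RPKM would correspond to about 18.4 reads, and that of 8.11 RPKM to about 133, if all 30000000 reads stated for a library had mapped. Col-0 replicate 1 thus rests on few reads, while the Col-0 mean in this ratio is set mainly by replicate 2.

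*PDF1.3*, the copy on chromosome 2, was at 13.2 and 39.6 RPKM in Col-0 replicates 1 and 2 and at 241 and 869 RPKM in *msil2/4* replicates 1 and 2. Its genotypes did not overlap either, with the lower *msil2/4* library 6.08-fold above the higher Col-0 library. The means were 26.4 ± 18.6 RPKM in Col-0 and 555 ± 445 RPKM in *msil2/4* (SD, n = 2 for each), a 21.0-fold ratio.

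**Figure D2:**
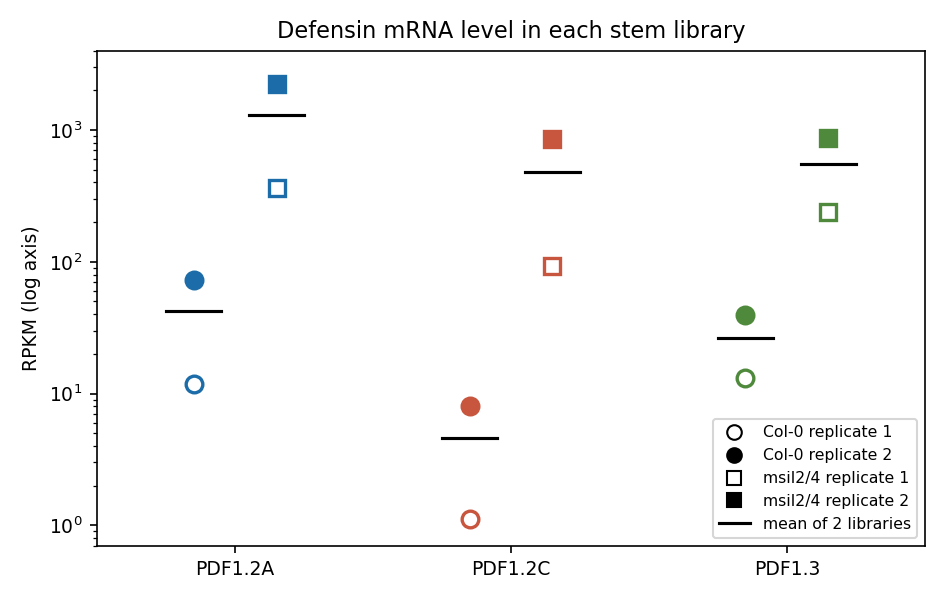
RPKM (log axis) of *PDF1.2A*, *PDF1.2C* and *PDF1.3* in the 2 Col-0 libraries (circles) and the 2 *msil2/4* libraries (squares), with replicate 1 open, replicate 2 filled and the mean of 2 libraries as a bar. Each *msil2/4* value is above both Col-0 values of its gene, and each filled symbol is above the open symbol of its genotype.

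On the scale of log2(RPKM + 1), the difference between *msil2/4* and Col-0 was 4.88 for *PDF1.2A* (SE 1.17), 6.01 for *PDF1.2C* (SE 1.22) and 4.25 for *PDF1.3* (SE 0.80), from a limma fit over the 234 listed genes. The median difference of the 156 up-regulated genes on this scale was 2.03. In that fit 65.8% of the listed genes passed as higher in *msil2/4* and 33.3% as lower, and the libraries of the genotypes did not overlap, with *msil2/4* above, in 65.8% as well. All 3 defensin genes belonged to both sets, from which nothing follows, because the listed genes were picked on this very contrast. Ordered by the log2 difference among the up-regulated genes, *PDF1.2C* was at rank 2, between the salicylic acid marker *PR1* (7.31) and the extensin gene *EXT1* (5.58). *PDF1.2A* was at rank 9, between the class III peroxidase gene *PER33* (4.95) and the lipid transfer protein gene *LTP1* (4.78), and *PDF1.3* at rank 16, between the methionine sulfoxide reductase gene *MSRB8* (4.31) and *CYP71B15* (4.13), which encodes the last enzyme of camalexin synthesis. These ranks and neighbors hold for the pseudocount of 1, which lowers the log2 difference of genes with very low values in Col-0. The jacalin lectin gene *JAL33*, for example, came to 4.10, at 0.03 and 0.24 RPKM in Col-0 and 10.7 and 31.1 RPKM in *msil2/4*. The order was not repeated with other pseudocounts, and an order by the ratio of means would differ.

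By level, the defensin genes stood higher among the listed genes in the *msil2/4* libraries than in the Col-0 libraries. In Col-0 replicate 1 *PDF1.3*, *PDF1.2A* and *PDF1.2C* were at ranks 78, 87 and 182 of the 234 genes by RPKM, and in *msil2/4* replicate 2 *PDF1.2A*, *PDF1.3* and *PDF1.2C* were at ranks 1, 3 and 4. In Col-0 replicate 2 *PDF1.2A*, *PDF1.3* and *PDF1.2C* were at ranks 41, 55 and 105, and in *msil2/4* replicate 1 at ranks 4, 6 and 24. The sum of the 3 genes was 26.1 and 121 RPKM in Col-0 replicates 1 and 2 and 696 and 3981 RPKM in *msil2/4* replicates 1 and 2. The log2 difference of the sum between the genotypes was 4.86, with means of 73.5 ± 67.0 RPKM in Col-0 and 2339 ± 2323 RPKM in *msil2/4* (SD, n = 2 for each). Another division of reads among the 3 copies would change this sum only through the different lengths of their transcripts. Reads exchanged with *PDF1.2B*, which is not in the sum, would change it as well. *PDF1.2B* was the nearest copy for some windows of *PDF1.2C* and *PDF1.3* within 2 mismatches. Of the summed RPKM of all 156 up-regulated genes, the 3 genes made up 2.6% and 9.65% in Col-0 replicates 1 and 2 and 8.45% and 32.1% in *msil2/4* replicates 1 and 2. Col-0 replicate 2 and *msil2/4* replicate 1 were thus close by this share, although their sums differed.

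The copies did not keep fixed proportions across the libraries. *PDF1.2A* held 45% and 60.6% of the sum in Col-0 replicates 1 and 2 and 52.2% and 56.6% in *msil2/4* replicates 1 and 2, so that its share overlapped between the genotypes. *PDF1.2C* held 4.29% and 6.71% in Col-0 and 13.3% and 21.6% in *msil2/4*, with both *msil2/4* libraries above both Col-0 libraries. *PDF1.3* held 50.7% and 32.7% in Col-0 and 34.6% and 21.8% in *msil2/4*, which overlapped. The ratio of *PDF1.2C* to its neighbor *PDF1.2A* was 0.0954 and 0.111 in Col-0 and 0.255 and 0.382 in *msil2/4*. *PDF1.2C* thus took a larger part of the signal wherever the sum of the 3 genes was larger, in an order that was the same over the 4 libraries. With 2 libraries per genotype an exact permutation test of such a share cannot give a two-sided p below 0.333, and none was run.

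**Figure D3:**
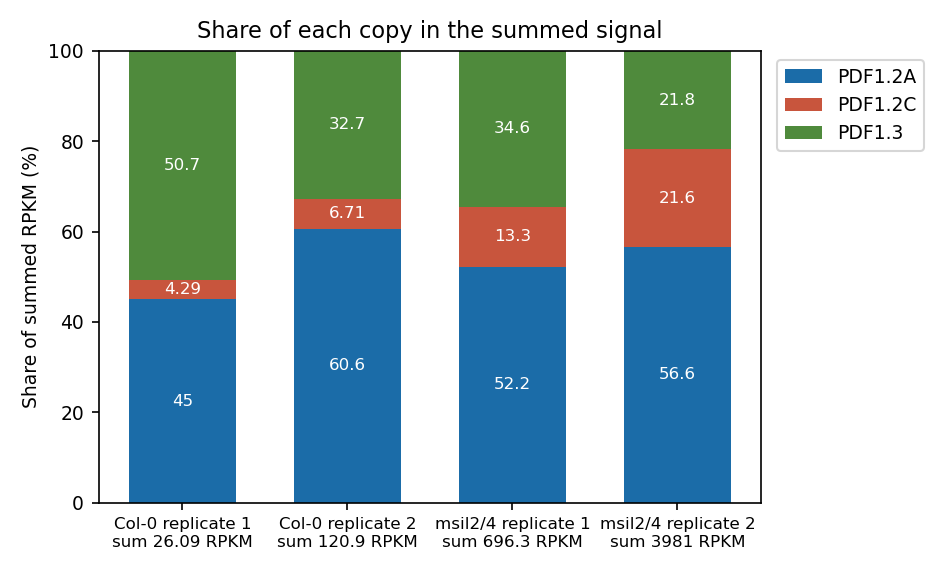
Share of *PDF1.2A*, *PDF1.2C* and *PDF1.3* in their summed RPKM (vertical axis, percent) in each of the 4 libraries, with the sum under each bar. The share of *PDF1.2C* is 4.29% and 6.71% in Col-0 and 13.3% and 21.6% in *msil2/4*.

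Within the libraries, *PDF1.2A* was above *PDF1.3* and *PDF1.3* above *PDF1.2C* in 3 of 4 cases. In Col-0 replicate 1 *PDF1.3* stood first, at 1.13 times the level of *PDF1.2A*, a gap smaller than the difference between the replicates of either gene. In *msil2/4* replicate 2 *PDF1.2C* and *PDF1.3* were nearly level, at a ratio of 0.99. In *msil2/4* replicate 1 this ratio was 0.384, and in the Col-0 libraries it was 0.0847 and 0.205.

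The replicates of 1 genotype differed more for the defensin genes than for most listed genes. This is a description without a test, because the genes were picked with their replicate values known and the authors' calls weighed the spread between replicates. *PDF1.2A* was 6.23-fold higher in Col-0 replicate 2 than in Col-0 replicate 1 and 6.20-fold higher in *msil2/4* replicate 2 than in *msil2/4* replicate 1. The corresponding ratios were 7.24 and 9.31 for *PDF1.2C*, 2.99 and 3.61 for *PDF1.3*, and 4.63 and 5.72 for the sum. On the log2(RPKM + 1) scale *PDF1.2A* ranked 2 in Col-0 and 3 in *msil2/4* by the size of this difference among the 234 genes, *PDF1.2C* ranked 4 and 1, and *PDF1.3* ranked 14 and 8. The median size over all listed genes was 0.45 in Col-0 and 0.39 in *msil2/4*, against 2.54 and 2.63 for *PDF1.2A*. The median signed difference over the 234 genes was 0.11 in Col-0 and 0.07 in *msil2/4*, with replicate 2 higher in both genotypes for 76 genes and replicate 1 higher in both for 42. At a limit of 1.5, set with these values known, 5 genes differed in the same direction in both genotypes, all with replicate 2 higher. They were the 3 defensin genes, *MSRB9*, which encodes a methionine sulfoxide reductase, with 1.89 and 1.58, and *NATA1*, a jasmonate-induced N-acetyltransferase gene of ornithine metabolism, with 1.55 and 2.08. The labels give no harvest or batch for the replicate numbers, so a shared origin of same-numbered libraries was not tested.

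**Figure D4:**
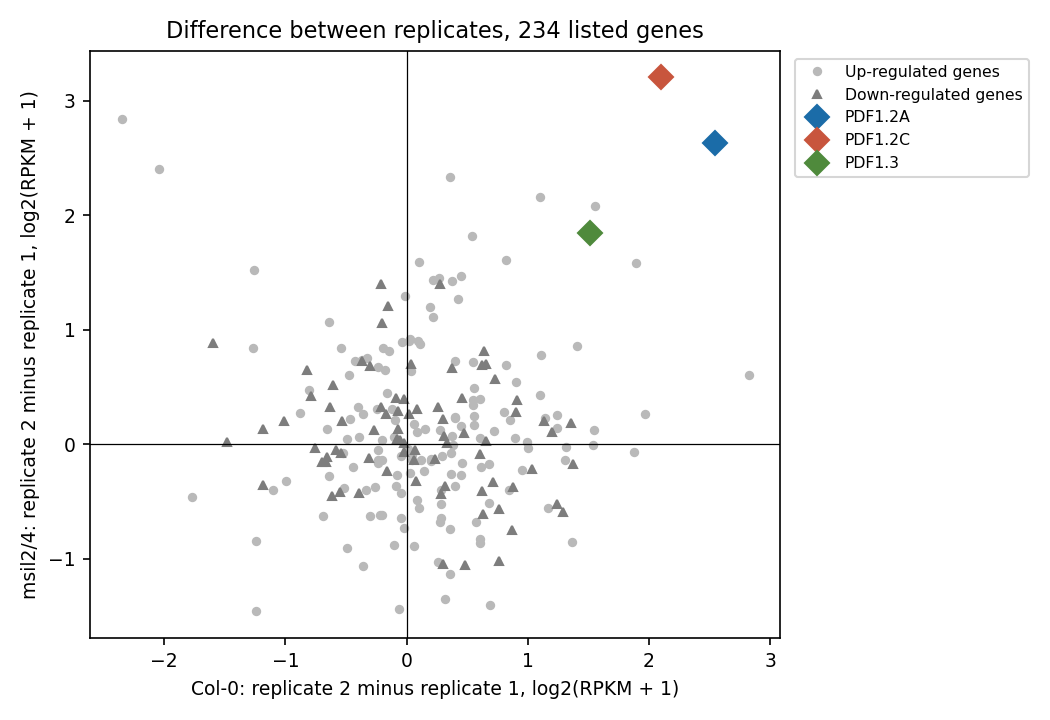
Replicate 2 minus replicate 1 in log2(RPKM + 1) in Col-0 (horizontal axis) and in *msil2/4* (vertical axis) for the 234 listed genes, with up-regulated genes as gray circles, down-regulated genes as dark triangles and the defensin genes as colored diamonds. *PDF1.2A* and *PDF1.2C* stand alone at the upper right, and *PDF1.3* lies nearer to the other genes at 1.51 and 1.85.

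The genes most like the defensins over the 4 libraries were found by the Euclidean distance of their log2(RPKM + 1) values, centered on each gene's mean, from the mean profile of the 3 defensin genes. The nearest 5 were *MSRB9* (1.4), *EXT1* (1.52), the dark-inducible dioxygenase gene *DIN11* (1.61), the peroxidase gene *PER37* (1.65) and the jacalin lectin gene *JAL33* (1.76). The defensin genes themselves were at 0.39 for *PDF1.2A*, 1.02 for *PDF1.3* and 1.07 for *PDF1.2C*. *PDF1.2C* was 1.24 from *PDF1.2A* but 2.05 from *PDF1.3*, distances between single genes that cannot be set against those from the mean profile. Of the 3 genes, *PDF1.2C* and *PDF1.3* have the most similar coding sequences but the least similar whole transcripts (69.5% identity). *MSRB9* measured 0.90 and 6.04 RPKM in Col-0 and 29.4 and 89.8 RPKM in *msil2/4*, and its replicate 2 was higher in each genotype, as for the defensins. *EXT1*, at 7.60 and 17.5 RPKM in Col-0 and 458 and 788 RPKM in *msil2/4*, had closer replicates in both genotypes. The choice of these names depended on how low values were treated: with a pseudocount of 0.1 only *MSRB9* and *JAL33* stayed among the nearest 5, and with at least 1 RPKM required in every library only *EXT1* and *DIN11*.

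**Figure D5:**
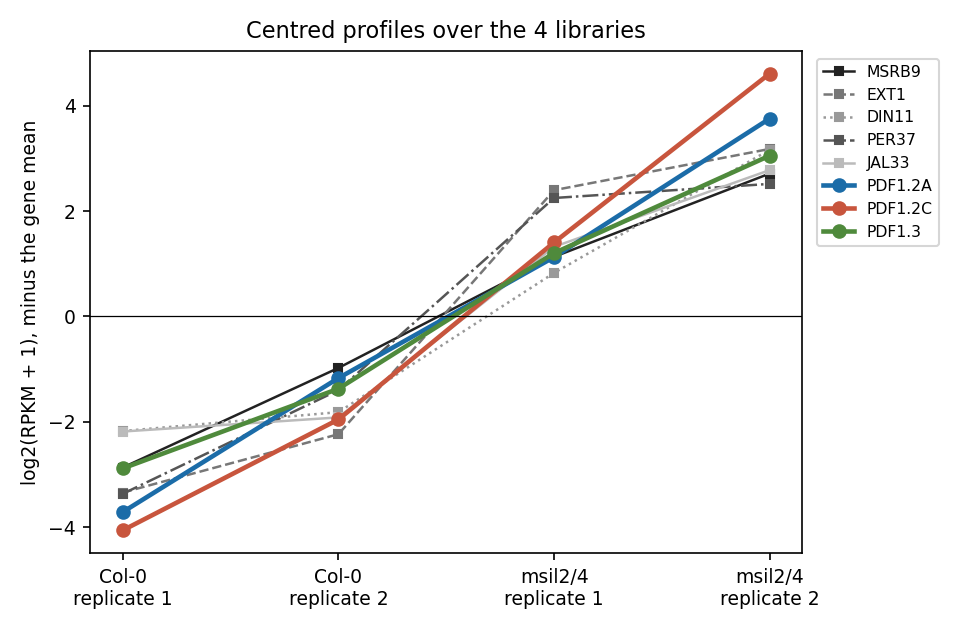
Log2(RPKM + 1) minus the mean of the gene (vertical axis) in the 4 libraries (horizontal axis) for the 3 defensin genes (colored) and the 5 listed genes with the nearest profile (gray, *MSRB9*, *EXT1*, *DIN11*, *PER37* and *JAL33*), the lines only joining the values of 1 gene. *PDF1.2C* spans the widest range of the defensin genes, and *EXT1* and *PER37* lie above them in *msil2/4* replicate 1.

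The other 12 genes of the plant defensin family that were looked for, *PDF1.1*, *PDF1.2B*, *PDF1.4*, *PDF1.5*, *PDF2.1* to *PDF2.6*, *PDF3.1* and *PDF3.2*, were in neither table. A gene missing from both tables either did not pass the authors' limits or was removed as too low, and the files do not tell which. *PDF1.2B*, which like *PDF1.2A* has the GCC box letters, is among them, so its share in the *PDF1.2* signal is unknown. Of 6 genes for related small cysteine-rich proteins, the trypsin inhibitor gene *ATTI1* was listed, and *ATTI2*, *ATTI3*, *ATTI6* and the thionin genes *THI2.1* and *THI2.2* were in neither table. *ATTI1* was at 40.6 and 71.6 RPKM in Col-0 and 166 and 203 RPKM in *msil2/4*, a log2 difference of 1.75 (SE 0.40), and its replicates differed by 0.80 and 0.29 on that scale.

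The list of other jasmonate and ethylene genes had 37 members, of which 3 were listed and 34 were in neither table. The 23 genes of hormone synthesis and signaling, among them *LOX2*, *AOS*, *COI1*, *MYC2*, *JAZ10*, *EIN2* and *EIN3*, were all in neither table. Of the 8 ethylene response factor genes that were looked for, only *ERF4* was listed, and *ORA59* and *ERF1*, the activators of *PDF1.2*, were in neither table. *ERF024* and *ERF073*, which were not among these 8, were also deposited as down-regulated, with log2 differences of -5.18 and -2.34. Of 6 further targets of the pathways, *CHI-B* and *NATA1* were listed, and *VSP1*, *VSP2*, *TAT3* and *HEL* were not. In the limma fit over all listed genes 1 of the 37 was higher, against 65.8% of the listed genes, and 1 was lower, against 33.3%. These shares have different denominators, since the 37 include the unlisted genes.

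*CHI-B*, the basic chitinase gene that answers to ethylene and jasmonate together with *PDF1.2*, was the higher one. It was at 13.1 and 36.3 RPKM in Col-0 and 200 and 363 RPKM in *msil2/4*, with a log2 difference of 3.56 (SE 0.59, adjusted p = 0.00528, limma). *ERF4*, which encodes a repressor of GCC box genes, was the lower one, at 167 and 199 RPKM in Col-0 and 51.6 and 64.8 RPKM in *msil2/4*, with a log2 difference of -1.64 (SE 0.33, adjusted p = 0.00684, limma). The libraries of *CHI-B* and of *ERF4* did not overlap between the genotypes, as in 65.8% of the listed genes with *msil2/4* above and 33.3% with *msil2/4* below. *CHI-B*, *ERF4* and *NATA1* had all been selected by the authors on this contrast, so that passing or not passing is a description only. *NATA1* was at 30.1 and 90.3 RPKM in Col-0 and 77.9 and 334 RPKM in *msil2/4*, so that its genotypes overlapped, and its log2 difference of 1.61 (SE 0.86) did not pass (adjusted p = 0.117, limma). *NATA1* passed without Col-0 replicate 2 (adjusted p = 0.0360, limma) and without *msil2/4* replicate 1 (adjusted p = 0.00546, limma), which raised the higher genes of this list to 2, and the adjusted p spanned 0.00241 to 0.411 over all alternatives. Each of these fits leaves 1 genotype with a single library, which is assumed to vary like the pair of the other genotype, and the library left out is in both cases one that made the genotypes overlap.

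Of 10 genes that link salicylic acid to the jasmonate response, the WRKY factor genes *WRKY51* and *WRKY62* were listed and *NPR1*, *TGA2*, *TGA5*, *TGA6*, *GRX480*, *WRKY33*, *WRKY50* and *WRKY70* were in neither table. Both listed genes passed as higher in *msil2/4*, as did 65.8% of all listed genes, so that their count is no result about this list. *WRKY51*, known to repress jasmonate responses, was at 5 and 13.2 RPKM in Col-0 and 31.6 and 38.0 RPKM in *msil2/4*, with a log2 difference of 1.95 (SE 0.50, adjusted p = 0.0122, limma). *WRKY62* was at 0.65 and 10.7 RPKM in Col-0 and 19.4 and 30.0 RPKM in *msil2/4*, with a log2 difference of 2.52 (SE 0.94, adjusted p = 0.0420, limma). *WRKY62* did not pass with pseudocounts of 0.1 (adjusted p = 0.0706, limma) and 0.01 (0.0873), nor without Col-0 replicate 1 (0.0662), where the single Col-0 library left is assumed to vary like the *msil2/4* pair. In Col-0 *WRKY62* differed between the replicates by 2.82 on the log2 scale, with replicate 2 higher as for the defensins, but in *msil2/4* by only 0.60. All p-values of this section come from genes that the authors had already selected on the same contrast. Each sets a genotype difference against the spread between replicates, moderated by limma over the listed genes, and does not reach beyond these libraries.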

How the data were processed

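The data are mRNA-seq values of 2 Col-0 and 2 *msil2/4* stem libraries. Per the labels, libraries were made from poly(A) RNA with a directional kit and sequenced as single 75-nt reads at a stated 30000000 reads each; the paper names a different stranded kit. The authors' processing notes name Bowtie2 2.3.4, TopHat2 2.0.7, Cufflinks 2.2.1, Cuffdiff and the TAIR10 build. Per the paper, TopHat2 mapped the reads with default parameters, Cufflinks quantified transcripts and Cuffdiff made the comparison. The deposited values are RPKM per library and 1 RPKM value per genotype made by the authors. The tables hold only the genes the authors called different, and a column of the authors' own log2 fold changes, which was not used. The paper says that transcripts under 1 RPKM in a library were filtered out, but 64 listed genes were under 1 RPKM in at least 1 library and 4 of them at 0. Depth per library is unknown and no counts were recovered.

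RPKM values were taken as deposited, log2(RPKM + 1) was fitted with limma 3.58.1 (R 4.3.3) over all 234 genes with genotype as the only term, and p-values were adjusted by Benjamini-Hochberg with a threshold of 0.05. The fit was tested on simulated data with planted differences in unselected genes. That test does not bear on the p-values given here, whose genes were selected on the same contrast. The 3 defensin genes and all gene lists were chosen with earlier results of these data known. Genes were named by a rule: the 3 genes, listed members of the defensin, jasmonate and ethylene, and salicylic acid lists, the 5 nearest profiles, and the neighbors in the order by log2 difference. Sequences and coordinates came from RefSeq (TAIR10.1), matched by gene identifier, and were searched with Python 3.11.15. Listed genes carry the deposited names, which can differ from the RefSeq symbols, as *EXT1* does from *EXT4*. Identities of the coding sequences and proteins, which are of equal length, were counted position by position. Those of whole transcripts came from global alignments with Biopython 1.88. Alternatives were pseudocounts of 0.1 and 0.01, at least 1 RPKM in every library, libraries rescaled to the authors' value per genotype, a replicate block, and each library left out.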

Additional observations from a re-analysis of the deposited data

How the results depend on the processing

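The log2 differences of *PDF1.2A*, *PDF1.2C*, *PDF1.3* and their sum between the genotypes kept their direction under the pseudocounts, the rescaling and each library left out, and those of the single genes also under the replicate block. This outcome was fixed in advance, since both *msil2/4* libraries were above both Col-0 libraries for each gene and for the sum. The scale factors of 0.908 to 1.09 were too small to undo that, and a block cannot alter the difference in a balanced design. With single libraries left out, those log2 differences ranged, in the same order, from 3.57 to 6.20, 4.41 to 7.61, 3.33 to 5.18 and 3.60 to 6.12. Over all listed genes, 139 to 152 were called higher and 73 to 77 lower by limma with a library left out, against 154 and 78. With at least 1 RPKM in every library, 97 were called higher, fewer genes being tested. Rescaling a library cannot change the shares of the copies or their order within it.

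A replicate block left the log2 differences at 4.88, 6.01 and 4.25 and gave each an SE of 0.51, since limma then estimated 1 variance shared by all genes. It raised the higher genes of the jasmonate and ethylene list from 1 to 2, the range with a library left out being 1 to 2 as well. The numbers are not stated to pair the libraries, and across the 234 genes the replicate differences of the genotypes had a Pearson correlation of 0.07, given as a description over genes that share the libraries.

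Of the 5 nearest profiles, 2 remained with a pseudocount of 0.1, 2 with the 1 RPKM minimum and 5 after rescaling. Groups of 2 libraries, an unknown depth and tables holding only called genes limit all of these values.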
